A study of Mus musculus with 14 samples.

Results

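Btn1a1 and Tcim were followed in primitive erythroid precursors of the mouse yolk sac, the first red cell precursors of the embryo. They are 2 of 12393 genes measured. All 4 probe sets that the platform annotation pairs with either gene were taken, 3 for Btn1a1 and 1 for Tcim, of 22626 probe sets that are not controls. A probe set is a group of short probes for 1 or more transcripts. The genes had been picked for opposite changes in KLF1-/- KLF2-/- precursors, so their differences between those arrays and wild type are given below as a description, with no test.

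Each sample was RNA from erythroid cells captured by laser from frozen yolk sac sections at embryonic day 9.5, pooled from 2 to 4 yolk sacs of 2 litters. There were 3 KLF1-/- KLF2-/- samples (title numbers 13, 14 and 15), 3 KLF1-/- samples (5, 6 and 8) and 8 wild-type samples (1 to 4 and 9 to 12), 1 array each. All are labelled as strain FVB/N. The series design names dams heterozygous for KLF1, or for KLF1 and KLF2, and says that embryos were genotyped by PCR on tail tissue. Title numbers 1 to 8 hold all KLF1-/- arrays with 4 wild-type arrays, and numbers 9 to 15 hold all KLF1-/- KLF2-/- arrays with the other 4. Whether a number run was also a batch of laboratory work is not stated. For the brightest Btn1a1 probe set and for Tcim, values within a run are therefore given beside the pooled ones.

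KLF1 and KLF2 are related DNA-binding factors of the Krüppel-like family. KLF1 switches on many genes of the red cell lineage, and KLF2 is best known from endothelium. Butyrophilin, the product of Btn1a1, is a membrane protein of the immunoglobulin superfamily and a main protein of the membrane around milk fat globules. Tcim encodes a small protein, first studied in humans as TC1, which binds Chibby, an inhibitor of beta-catenin, and so acts on Wnt signalling.

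Klf1 signal was lower in the mutants, at 8.56 to 9.59 in KLF1-/- KLF2-/-, 9.03 to 9.79 in KLF1-/- and 10.05 to 11.82 in wild type (log2 expression, lowest and highest array). Klf2 signal was 6.36 to 7.003 in KLF1-/- KLF2-/-, 5.99 to 6.53 in KLF1-/- and 5.90 to 6.59 in wild type, so it was not lower in the arrays labelled as lacking KLF2. The sources used here do not place these probe sets relative to the deletions, and neither gene can therefore serve as a check of the labels. The 7 measured erythroid markers of 8 listed were bright in every group: their mean log2 value per array ran from 11.55 to 12.39 in KLF1-/- KLF2-/-, 11.70 to 11.97 in KLF1-/- and 11.60 to 12.54 in wild type. Visceral endoderm markers were as bright, at 11.54 to 11.67 in KLF1-/- KLF2-/-, 11.58 to 12.32 in KLF1-/- and 10.83 to 12.63 in wild type. The material therefore also held transcripts that mark other yolk sac cells. In such bulk material, fewer cells of a type and less RNA per cell cannot be told apart.

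Btn1a1 signal was high in both mutant genotypes on its bright probe set, 1419175_a_at. It read 8.76, 9.22 and 9.03 in KLF1-/- KLF2-/- replicates 13, 14 and 15. In KLF1-/- replicates 5, 6 and 8 it read 8.74, 7.78 and 8.21. In wild type the 8 arrays ran from 6.36 to 8.14 with a median of 6.85. Every KLF1-/- KLF2-/- array lay above every other array, and KLF1-/- replicate 6 was the 1 mutant array below the highest wild-type array, replicate 9. Group means were 9.004 ± 0.23 in KLF1-/- KLF2-/-, 8.24 ± 0.48 in KLF1-/- and 6.94 ± 0.56 in wild type (SD, n = 3, 3 and 8).

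**Figure D1:**
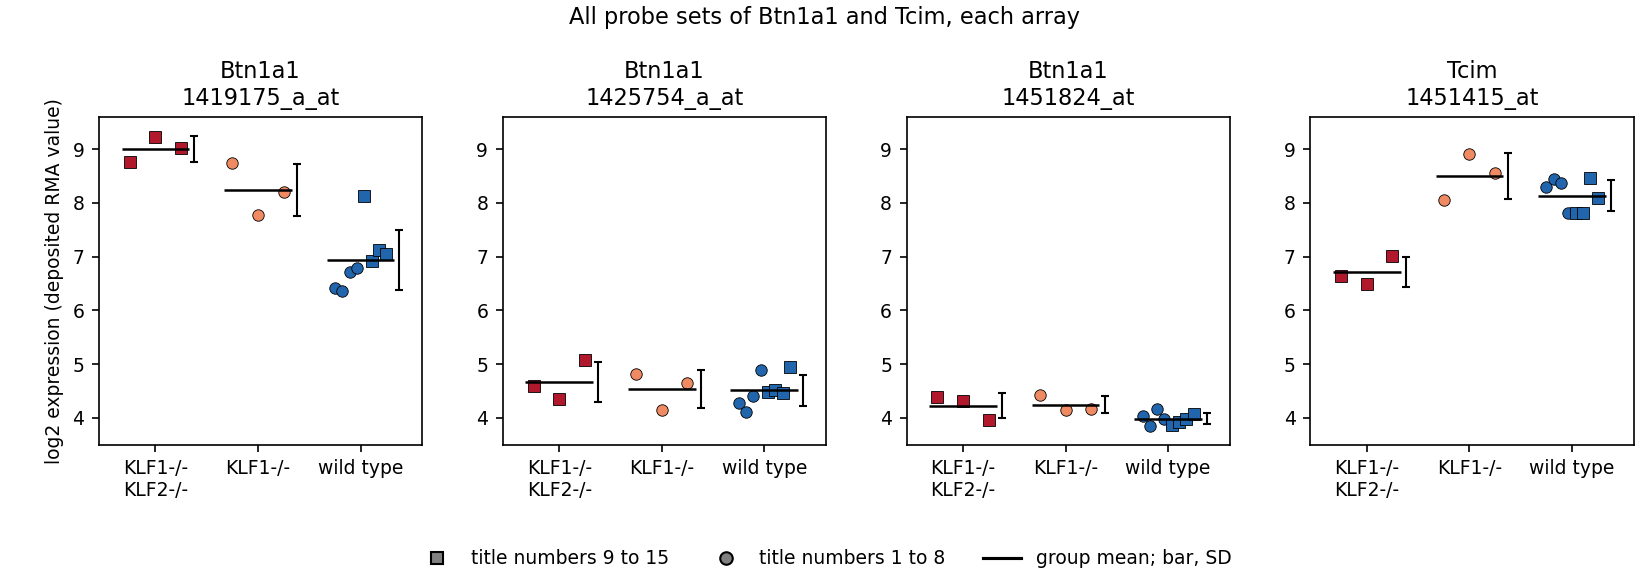
Deposited log2 expression (vertical axis) of the 3 Btn1a1 probe sets and the Tcim probe set on each array, by genotype; squares are title numbers 9 to 15 and circles 1 to 8, lines are group means and bars SD. Btn1a1 1419175_a_at stands at 8.76 to 9.22 in KLF1-/- KLF2-/-, above all wild-type arrays, and Tcim at 6.48 to 7.02, below all other arrays, while the other Btn1a1 probe sets stay between 3.85 and 5.07.

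The KLF1-/- KLF2-/- mean of Btn1a1 was 2.07 above wild type on the log2 scale, 4.19-fold, and was part of why the gene was chosen. Of all 22626 probe sets, 0.393% had every KLF1-/- KLF2-/- array above every wild-type array. Over all probe sets limma called 5 in this comparison, 0.0221%, of which 1, 0.00442%, was higher, and 2.11% had an unadjusted p under 0.05. Within the number run the difference was 1.70, and all 3 KLF1-/- KLF2-/- arrays lay above wild-type arrays 9 to 12, as for 2.89% of probe sets. The brightness of the signal also moved relative to other probe sets on the same array. Btn1a1 1419175_a_at stood at the 82.7 to 87.2 percentile of its array in KLF1-/- KLF2-/-, the 68.0 to 83.8 in KLF1-/- and the 45.5 to 75.2 in wild type.

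The KLF1-/- comparison asks whether Btn1a1 differs where KLF1 alone is lacking, on arrays that did not choose the gene, although the wild-type arrays are shared. The difference was 1.31 (SE 0.306, 95% interval 0.65 to 1.96), 2.47-fold, with 2 of 3 KLF1-/- arrays above every wild-type array. It did not pass over all probe sets (limma, unadjusted p = 0.000778, Benjamini-Hochberg adjusted p = 0.593). In this comparison 6 of 22626 probe sets passed an adjusted p under 0.05, 0.0265%, all lower in KLF1-/-, and none of the 4 Btn1a1 and Tcim probe sets was among them, with 434 probe sets at an unadjusted p under 0.05. Of the 4, both Btn1a1 1419175_a_at and 1451824_at had an unadjusted p under 0.05 and were higher in KLF1-/-, as were 1.18% of all probe sets. Without wild-type replicate 9 the Btn1a1 difference was 1.48 (adjusted p = 0.0316), and over the other alternatives, leaving aside the fit with unstable array weights, the adjusted p stayed above 0.05.

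Wild-type Btn1a1 was higher on every array numbered 9 to 12 than on any numbered 1 to 4, although this did not pass after adjustment. It was 8.14, 6.92, 7.12 and 7.04 in wild-type replicates 9 to 12, against 6.42, 6.36, 6.71 and 6.79 in replicates 1 to 4. The difference was 0.74 (exact two-sided permutation p = 0.0286, the smallest that 4 against 4 arrays allow, and 0.114 adjusted over the 4 probe sets). Of all probe sets, 1.12% were higher without overlap in wild type 9 to 12.

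Against wild type of its own run, Btn1a1 was higher by about as much in either mutant genotype. This near equality depends on wild-type replicate 9, whose 8.14 raised the mean of wild type 9 to 12. With 1 array left out, the difference between the wild-type runs went from 0.46 to 0.86. KLF1-/- KLF2-/- stood 1.70 above wild type 9 to 12, 3.25-fold. KLF1-/- stood 1.67 above wild type 1 to 4, 3.19-fold, with all 3 arrays higher (exact two-sided permutation p = 0.0571, the smallest that 3 against 4 arrays allow, and 0.229 adjusted over the 4 probe sets). Of all probe sets, 1.56% were higher without overlap in KLF1-/- than in wild type 1 to 4. The deviations of single arrays from the wild-type mean of their run were 1.45, 1.92 and 1.72 for KLF1-/- KLF2-/- replicates 13 to 15, and 2.17, 1.21 and 1.64 for KLF1-/- replicates 5, 6 and 8. For Btn1a1, as for 1.87% of probe sets, every KLF1-/- KLF2-/- array was above every KLF1-/- array. With the run as a block in limma the KLF1-/- difference was 1.67 (SE 0.283, adjusted p = 0.182).

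The direct difference in Btn1a1 between the mutant genotypes therefore depended on how the runs were handled. KLF1-/- KLF2-/- minus KLF1-/- was 0.76 from the genotype means and 0.02 with the run as a block. Both are descriptions, since the KLF1-/- KLF2-/- arrays chose the gene. Because each mutant genotype lies in 1 run, a direct effect of the run on these 2 groups can be taken off only through the wild-type arrays.

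**Figure D2:**
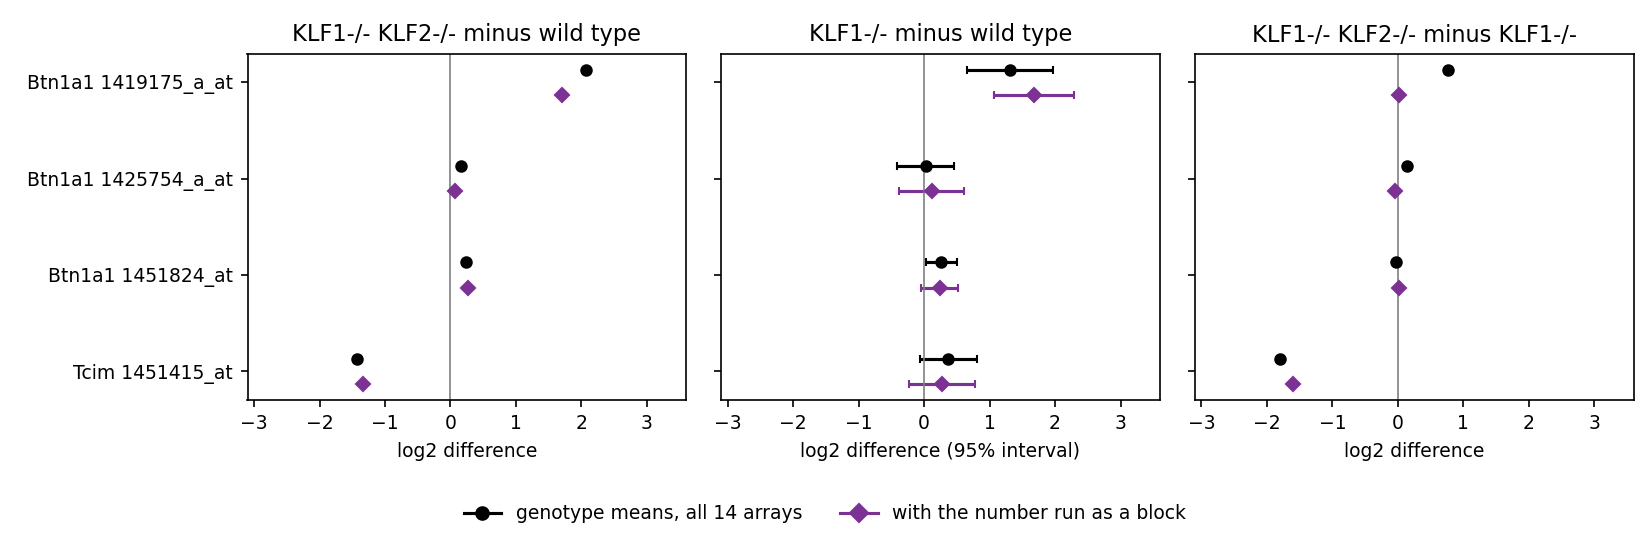
Log2 differences of the 4 probe sets in 3 comparisons, from genotype means over 14 arrays (circles) and from a fit that blocks on the number run (diamonds); bars are 95% intervals, drawn for KLF1-/- minus wild type only, because the KLF1-/- KLF2-/- arrays in the other comparisons chose the genes. The Btn1a1 1419175_a_at difference between the mutant genotypes is 0.76 without the block and 0.02 with it, while that of Tcim is −1.80 and −1.61.

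The other Btn1a1 probe sets differed far less between genotypes. Both are annotated to 1 transcript accession, BC009817, while the bright one is annotated to NM_013483. The suffix _a_at marks a probe set designed to detect several transcripts of 1 gene. Probe set 1425754_a_at read 4.60, 4.34 and 5.07 in KLF1-/- KLF2-/- replicates 13 to 15 and 4.82, 4.15 and 4.64 in KLF1-/- replicates 5, 6 and 8. In wild type it ran from 4.10 to 4.95 with a median of 4.47, so the groups overlapped. Its difference was 0.02 in KLF1-/- (95% interval −0.41 to 0.45, limma adjusted p = 0.9998) and 0.16 in KLF1-/- KLF2-/-.

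Probe set 1451824_at was dimmer still, with slightly higher means in the mutants. It read 4.40, 4.31 and 3.96 in KLF1-/- KLF2-/- replicates 13 to 15 and 4.43, 4.14 and 4.17 in KLF1-/- replicates 5, 6 and 8. In wild type it ran from 3.85 to 4.16 with a median of 3.97. Within each mutant genotype 2 of 3 arrays lay above every wild-type array. The difference was 0.26 in KLF1-/- (95% interval 0.02 to 0.50, limma unadjusted p = 0.0347, adjusted p = 0.9998) and 0.24 in KLF1-/- KLF2-/-.

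These probe sets were among the dimmest on the arrays. Probe set 1425754_a_at stood at or below the 16.2 percentile of every array and 1451824_at at or below the 6.78. RMA, the summary used for the deposited values, compresses differences between weak signals. Across the 14 arrays the bright probe set correlated with 1451824_at at r = 0.58 and with 1425754_a_at at r = 0.32, and after the genotype means were taken off at r = −0.0020 and 0.34. The difference of the bright probe set is thus the value of 1 of 3 probe sets of the gene, and which transcripts each detects was not tested.

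Tcim was low in KLF1-/- KLF2-/- and not in KLF1-/-. Its probe set, 1451415_at, read 6.64, 6.48 and 7.02 in KLF1-/- KLF2-/- replicates 13, 14 and 15. In KLF1-/- replicates 5, 6 and 8 it read 8.06, 8.91 and 8.56. In wild type the arrays ran from 7.80 to 8.46 with a median of 8.20. Every KLF1-/- KLF2-/- array lay below every other array, and KLF1-/- replicates 6 and 8 lay above every wild-type array. Means were 6.71 ± 0.28 in KLF1-/- KLF2-/-, 8.51 ± 0.43 in KLF1-/- and 8.14 ± 0.29 in wild type (SD, n = 3, 3 and 8).

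The KLF1-/- KLF2-/- mean of Tcim was 1.42 below wild type on the log2 scale, 2.68-fold lower, which is the value the gene was chosen on. Of all probe sets, 0.305% had every KLF1-/- KLF2-/- array below every wild-type array. Within the number run the difference was −1.33, every array lay below wild type 9 to 12 (1.46% of probe sets), and the 3 arrays deviated from the mean of wild type 9 to 12 by −1.40, −1.56 and −1.02. Tcim stood at the 47.5 to 58.5 percentile of its array in KLF1-/- KLF2-/-, the 76.2 to 82.2 in KLF1-/- and the 71.0 to 80.7 in wild type.

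In KLF1-/- the Tcim difference had the opposite sign and did not pass. It was 0.37 (SE 0.204, 95% interval −0.07 to 0.81; limma unadjusted p = 0.0903, adjusted p = 0.9998), and 0.28 against wild type 1 to 4 (exact two-sided permutation p = 0.4, adjusted p = 0.533). Single KLF1-/- arrays deviated from that run's wild-type mean by −0.17, 0.67 and 0.33, so they did not share a sign. Without KLF1-/- replicate 6 the difference was 0.17, and without replicate 5 it was 0.60. The interval's lower end was −0.07, and with the run as a block −0.22. The KLF1-/- KLF2-/- difference of −1.42 lies below both, but the gene was chosen on that value.

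The plot of the alternatives shows the KLF1-/- difference of both genes above 0 in 24 of 24 fits. Tcim passed in 1 of these fits and Btn1a1 in 2; 1 of each was the fit with unstable array weights.

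**Figure D3:**
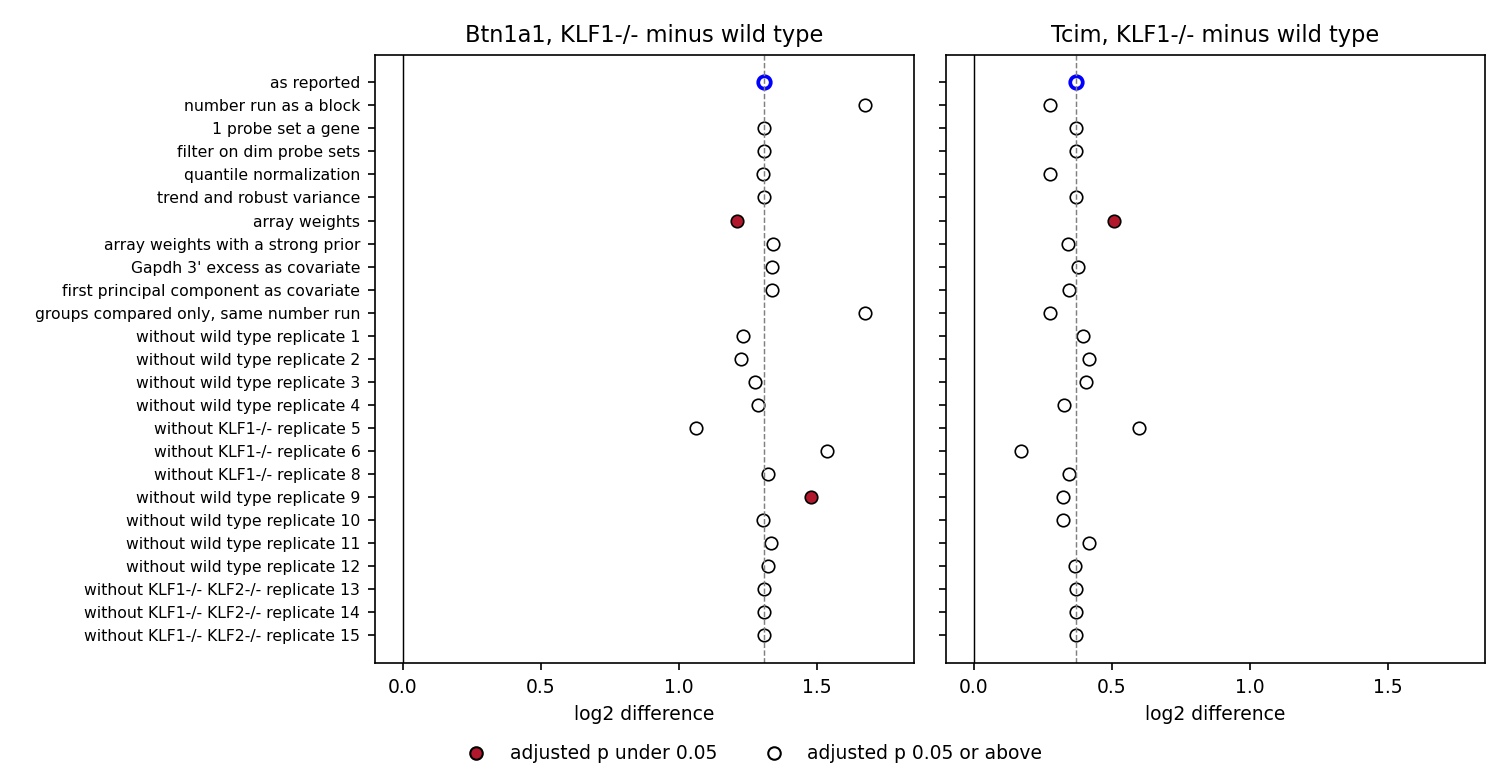
Log2 difference between KLF1-/- and wild type (horizontal axis) of Btn1a1 1419175_a_at and of Tcim under each way of fitting (rows); filled points have an adjusted p under 0.05 and the dashed line marks the reported value. Btn1a1 runs from 1.06 to 1.67 and Tcim from 0.17 to 0.60, all above 0.

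Wild-type Tcim overlapped between the runs. It was 7.80, 7.81, 8.46 and 8.10 in wild-type replicates 9 to 12, against 8.30, 8.45, 8.37 and 7.81 in replicates 1 to 4 (difference −0.19, exact two-sided permutation p = 0.429, adjusted p = 0.571). KLF1-/- KLF2-/- minus KLF1-/- was −1.80 for Tcim, and −1.61 with the run as a block. This too is a description with no test, since the KLF1-/- KLF2-/- arrays in it chose the gene. In that comparison limma called 0 of 22626 probe sets, 0%, with 142, 0.628%, at an unadjusted p under 0.05, and 1.61% of probe sets were lower without overlap.

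**Figure D4:**
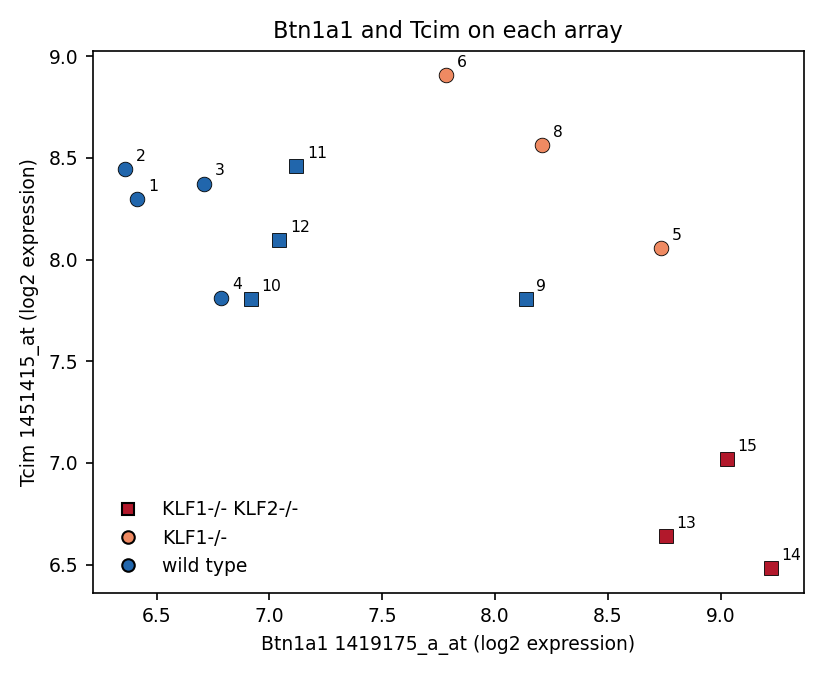
Log2 expression of Btn1a1 1419175_a_at (horizontal axis) and Tcim 1451415_at (vertical axis) on each of the 14 arrays, numbered by title; colours give genotype, squares title numbers 9 to 15 and circles 1 to 8. KLF1-/- KLF2-/- arrays combine Btn1a1 of 8.76 or more with Tcim of 7.02 or less, KLF1-/- arrays combine Btn1a1 of 7.78 or more with Tcim of 8.06 or more, and wild-type replicate 9 stands apart from the other wild-type arrays on Btn1a1 alone.

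The genotypes lay in different parts of the plot of the one gene against the other. For KLF1-/- KLF2-/- that place follows from how the genes were chosen. On each gene alone, wild type and KLF1-/- overlapped. Wild-type replicate 9 read 8.14 for Btn1a1, above KLF1-/- replicate 6 at 7.78. KLF1-/- replicate 5 read 8.06 for Tcim, within the wild-type range of 7.80 to 8.46. Among the 8 wild-type arrays, where neither gene was chosen for a difference, Btn1a1 and Tcim had r = −0.53 (permutation p = 0.191) and rho = −0.40 (permutation p = 0.327), and r = −0.20 without the 2 arrays farthest from the median of Tcim. None of 5 relations tested there passed after adjustment (adjusted p of 0.955 or more for r). The other 4 set each gene against measures of the array. For Btn1a1, r was 0.096 with the interquartile range of the array's values and 0.021 with the 3′ to 5′ difference in Gapdh signal, which grows as RNA degrades, and 0.65 and 0.66 without the 2 farthest arrays (permutation p = 0.103 and 0.1). For Tcim r was 0.157 and −0.0045, and −0.18 and −0.35 without them. A number run holds 4 wild-type arrays, too few for a value within it.

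Of the butyrophilin family and its close relatives, 4 of 10 listed genes were measured. Ermap, an erythroblast membrane protein of this family that carries the Scianna blood group in humans, lay on the other side of wild type from Btn1a1. It read 7.93, 8.42 and 7.98 in KLF1-/- KLF2-/- replicates 13 to 15 and 8.19, 7.75 and 7.91 in KLF1-/- replicates 5, 6 and 8. In wild type it ran from 8.84 to 11.43 with a median of 10.20, above all mutant arrays. Of all probe sets, 0.305% were lower than wild type without overlap in KLF1-/- KLF2-/-, and 0.23% in KLF1-/-. Its differences were −2.06 in KLF1-/- KLF2-/- (limma adjusted p = 0.412) and −2.22 in KLF1-/- (adjusted p = 0.347), neither of which passed.

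Ermap, too, did not overlap between wild-type runs, at 10.45 to 11.43 in replicates 9 to 12 against 8.84 to 9.96 in replicates 1 to 4, a difference that was not tested. The share of all probe sets higher in that way was 1.12%. With the run as a block Ermap passed in KLF1-/- KLF2-/- (log2 difference −2.81, SE 0.288, limma adjusted p = 0.00251), and the KLF1-/- difference was −1.47 (adjusted p = 0.349). Mog, the myelin oligodendrocyte glycoprotein, was at 4.34 ± 0.26 in KLF1-/- KLF2-/-, 4.22 ± 0.14 in KLF1-/- and 4.24 ± 0.25 in wild type (SD, n = 3, 3 and 8, here and below). The family's median difference was 0.05 in KLF1-/- KLF2-/- and 0.03 in KLF1-/-, against 0.0067 and 0.0070 over all 12393 genes. The chosen gene Btn1a1 is itself 1 of the 4 genes in that median, so it is no measure of the relatives alone.

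**Figure D5:**
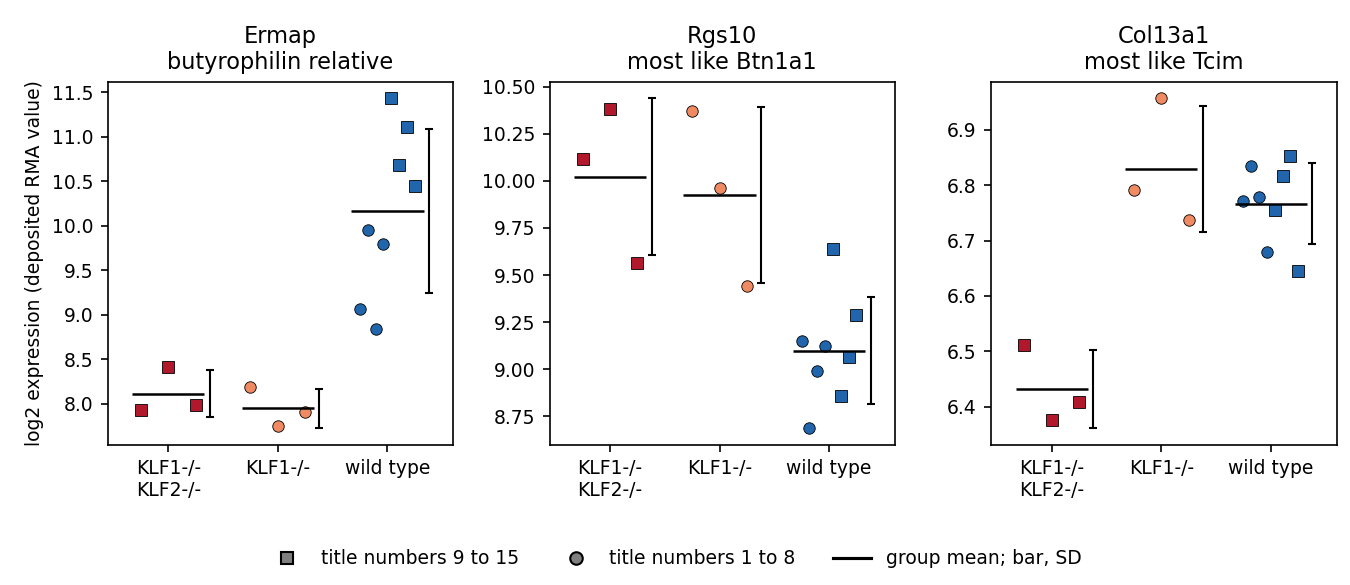
Log2 expression on each array of Ermap, of Rgs10 and of Col13a1, by genotype; squares are title numbers 9 to 15 and circles 1 to 8, lines are group means and bars SD, and each panel has its own scale. All 6 mutant arrays lie below the wild-type arrays for Ermap, and the KLF1-/- KLF2-/- arrays lie at 6.38 to 6.51 for Col13a1, below the other groups. Of all probe sets, 0.305% are lower than wild type without overlap in KLF1-/- KLF2-/- and 0.23% in KLF1-/-.

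Genes that act with butyrophilin on milk fat were not called, as was the case for nearly all probe sets. Limma called 0.0221% of probe sets in KLF1-/- KLF2-/- and 0.0265% in KLF1-/-, with 2.11% and 1.92% at an unadjusted p under 0.05. Counts of 0 in lists this short lie near these shares. All 8 listed genes of the milk fat globule and lipid droplets were measured, among them Xdh, the xanthine oxidoreductase that binds butyrophilin, and limma called 0 in either comparison with wild type, also at an unadjusted p under 0.05. Their median difference was 0.07 in KLF1-/- KLF2-/- and −0.03 in KLF1-/-. Plin2, which coats lipid droplets, was 11.61 ± 0.45 in KLF1-/- KLF2-/-, 11.53 ± 0.30 in KLF1-/- and 11.19 ± 0.45 in wild type. Cd36, a fatty acid receptor, was 6.68 ± 0.91 in KLF1-/- KLF2-/-, 6.26 ± 0.72 in KLF1-/- and 6.18 ± 0.54 in wild type. Of the 7 milk protein genes, Lalba and the casein gene Csn2 among them, 0 were called or had an unadjusted p under 0.05 in either comparison. Their mean level per array was 6.08 to 6.32 in KLF1-/- KLF2-/-, 5.74 to 6.37 in KLF1-/- and 5.95 to 6.50 in wild type, so the groups overlapped.

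Genes of 3 signalling pathways listed beside Tcim did not pass either, again like nearly all probe sets. The shares called were 0.0221% in KLF1-/- KLF2-/- and 0.0265% in KLF1-/-, and 2.11% and 1.92% had an unadjusted p under 0.05. Of the Wnt pathway 13 of 14 listed genes were measured, 0 were called, and 1 had an unadjusted p under 0.05, in KLF1-/- KLF2-/-. That gene was Myc, a Wnt target and a factor named in the study's title, at 6.46 ± 0.30 in KLF1-/- KLF2-/-, 6.89 ± 0.42 in KLF1-/- and 7.35 ± 0.38 in wild type, with a difference of −0.88 in KLF1-/- KLF2-/- (limma adjusted p = 0.788). Notum, which inactivates Wnt proteins, was 5.15 ± 0.14 in KLF1-/- KLF2-/-, 5.38 ± 0.037 in KLF1-/- and 5.32 ± 0.10 in wild type. The list's median difference was 0.03 in KLF1-/- KLF2-/- and 0.01 in KLF1-/-.

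All 12 Notch pathway genes were measured and limma called 0, also at an unadjusted p under 0.05, with medians of −0.02 in KLF1-/- KLF2-/- and −0.03 in KLF1-/-. Hey1, a Notch target, differed by 0.18 and the receptor gene Notch1 by 0.12 in KLF1-/- KLF2-/-, and by −0.04 on its other probe set. Of the NF-κB pathway 7 of 8 were measured and limma called 0. The shares over all probe sets are those given for the Wnt genes. In KLF1-/- 1 had an unadjusted p under 0.05, the subunit gene Nfkb2 at −0.31 (limma adjusted p = 0.9998, named after its value was seen), against 0.06 on its other probe set. The subunit gene Rela differed by 0.32 and the inhibitor of apoptosis Birc3 by 0.15 in KLF1-/- KLF2-/-, and the list's medians were 0.0040 there and 0.05 in KLF1-/-.

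Megakaryocyte and macrophage marker levels were highest on the KLF1-/- KLF2-/- arrays, in which Tcim was low and Btn1a1 high, although no single marker passed. Over 7 megakaryocyte markers the mean level per array was 7.73 to 8.12 in KLF1-/- KLF2-/-, 7.45 to 7.61 in KLF1-/- and 7.10 to 7.49 in wild type. All 7 differences from wild type were above 0 in KLF1-/- KLF2-/-, with a median of 0.40, 0 called by limma and 5 at an unadjusted p under 0.05. Over all probe sets, 1.48% were higher at that p in KLF1-/- KLF2-/-, the share to set beside the counts of this and the next lists. The smallest p among them belonged to Ppbp, a platelet chemokine, with a difference of 1.53 (limma adjusted p = 0.197), and the next to Vwf, von Willebrand factor, with 1.23 (adjusted p = 0.634). Vwf read 7.20, 7.33 and 5.74 in KLF1-/- KLF2-/- replicates 13, 14 and 15, the last within the wild-type range of 4.81 to 5.88. Over 8 macrophage markers the level was 7.35 to 7.37 in KLF1-/- KLF2-/-, 6.88 to 7.13 in KLF1-/- and 6.73 to 7.23 in wild type, and 6 of the 8 differences were above 0 in KLF1-/- KLF2-/-, with a median of 0.29, 0 called and 2 at an unadjusted p under 0.05. Laptm5, a lysosomal protein of blood cells, differed by 1.42 on its brightest probe set (limma adjusted p = 0.9999) but by 0.04 and 0.09 on its other 2. Wild-type Laptm5 on the brightest probe set was 8.15 to 9.56 in replicates 9 to 12 and 6.84 to 7.85 in replicates 1 to 4. The KLF1-/- KLF2-/- range of 9.27 to 9.73 thus overlapped wild type of its own run. Ppbp in wild type of those runs was 6.56 to 7.10 and 5.96 to 6.61, below the 7.44 to 8.50 of KLF1-/- KLF2-/-. Such a separation from wild type held for 0.393% of all probe sets. The list levels were not compared within a run. The level of 8 mesenchyme markers was 10.14 to 10.53 in KLF1-/- KLF2-/-, 9.67 to 10.56 in KLF1-/- and 9.53 to 10.52 in wild type. All 8 mesenchyme differences were above 0 in KLF1-/- KLF2-/-, with a median of 0.38, 0 called by limma and 2 at an unadjusted p under 0.05. These were Sparc, a matrix protein, at 0.65 (limma adjusted p = 0.9999; −0.03 on its other probe set), and the proteoglycan Dcn at 0.50 (adjusted p = 0.9999). That of 8 endothelial markers was 6.40 to 6.58 in KLF1-/- KLF2-/-, 6.39 to 6.86 in KLF1-/- and 6.34 to 6.64 in wild type. That of 5 epithelial markers was 8.70 to 8.95 in KLF1-/- KLF2-/-, 8.53 to 9.46 in KLF1-/- and 8.29 to 9.67 in wild type. The per-array levels of the mesenchyme, endothelial and epithelial lists overlapped between the groups, with median differences in KLF1-/- KLF2-/- of 0.38, 0.06 and 0.06. The part of these cells in the Btn1a1 and Tcim values was not tested.

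Over the 14 arrays the genes most like Btn1a1 1419175_a_at among 12392 others were Rgs10 (r = 0.87), which encodes a regulator of G protein signalling, Spry1 (0.86), a brake on receptor tyrosine kinases, Fam214b (0.86), Cox6b2 (0.86), a subunit of cytochrome c oxidase, and Dnajb2 (0.85), a co-chaperone. After the genotype means were taken off, r was 0.61, 0.50, 0.64, 0.71 and 0.59 in the same order. Rgs10 read 10.12, 10.38 and 9.57 in KLF1-/- KLF2-/- replicates 13 to 15 and 10.37, 9.96 and 9.44 in KLF1-/- replicates 5, 6 and 8. In wild type Rgs10 ran from 8.69 to 9.64, again with replicate 9 highest.

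Most like Tcim were Col13a1 (r = 0.90), which encodes a transmembrane collagen, Ripply3 (0.76), a transcriptional corepressor, Polr3a (0.74), the largest subunit of RNA polymerase III, Rab26os (0.73) and Patj (0.68), a tight junction protein. After the genotype means were taken off, r was 0.47, 0.38, 0.57, 0.81 and 0.65. These are the brightest probe sets: Polr3a differed by −0.48 and Patj by −0.23 in KLF1-/- KLF2-/- there, against 0.0096 and −0.04 on their other probe sets. Col13a1 read 6.51, 6.38 and 6.41 in KLF1-/- KLF2-/- replicates 13 to 15 and 6.79, 6.96 and 6.74 in KLF1-/- replicates 5, 6 and 8. In wild type Col13a1 ran from 6.64 to 6.85. Its log2 difference in KLF1-/- KLF2-/- was −0.34, which did not pass (limma adjusted p = 0.697). All points of such a correlation share the arrays, and these genes were picked as the highest of all, so r is a description.

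None of the measured genes nearest to Btn1a1 or Tcim was called by limma, as was the case for nearly all probe sets. By the RefSeq annotation of GRCm38.p6, Btn1a1 is a protein-coding gene of chromosome 13 and Tcim one of chromosome 8. In its gene order, 17 to 138 genes lie between Btn1a1 and the measured genes on 1 side, and 23 to 35 on the other. For Tcim 8 to 13 genes lie between on 1 side and 2 to 5 on the other. The genes directly beside either were thus not read. Coordinates are left out because no build is named for the deposited values. The 6 nearest measured genes of Btn1a1, Abt1, Zfp322a, Prss16 and the histone genes H3c7, H3c4 and H1f4, differed by 0.02 to 0.25 in KLF1-/- KLF2-/- and −0.13 to 0.22 in KLF1-/-. Those of Tcim, Sfrp1, Golga7, Gins4, Ido2, Ido1 and Adam18, differed by −0.27 to 0.20 in KLF1-/- KLF2-/- and −0.15 to 0.37 in KLF1-/-. Among these 12 genes limma called 0, with 0 at an unadjusted p under 0.05, in either comparison. Over all probe sets it called 0.0221% in KLF1-/- KLF2-/- and 0.0265% in KLF1-/-. At an unadjusted p under 0.05 the shares were 2.11% and 1.92%, so counts of 0 among so few genes lie near them. Sfrp1, the nearest measured gene on 1 side of Tcim and an inhibitor of Wnt signalling, differed by −0.27 in KLF1-/- KLF2-/- on its brightest probe set (limma adjusted p = 0.9999) and by −0.14 to −0.06 on its other 3.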

How the data were processed

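RNA of 14 laser-captured samples was amplified in a 2-cycle protocol from 10 to 20 ng and hybridised to Affymetrix mouse expression arrays, per the labels' protocols. The deposited log2 values are named as coming from GCOS, RMA, affy and limma, per the submitters' processing notes, which give no versions. No array was left out. Of 22690 probe sets 64 controls were removed and 22626 tested. The platform annotation gave 20380 of them 1 gene, 691 several and 1555 none. Genotype means over all 14 arrays were fitted with limma 3.58.1 (R 4.3.3), with Benjamini-Hochberg adjustment over all probe sets and a threshold of 0.05. Single probe sets within the wild-type runs, and KLF1-/- against wild type 1 to 4, were compared by exact permutation tests.

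The members, gene lists and tests were chosen with earlier results of these data known. The genes named were all probe sets of Btn1a1 and Tcim, the factors Klf1, Klf2 and Myc, the called members of each list or else the 2 with the smallest p in KLF1-/- KLF2-/-, the 5 genes most correlated with each member, and 3 measured neighbours on each side. List genes were read by their brightest probe set. Of 51 measured pathway genes in 6 lists, limma called 0 in KLF1-/- and 1 in KLF1-/- KLF2-/-, against 0.0265% and 0.0221% of all probe sets. The 1 was Btn1a1, which that comparison chose, so its call is no test. It lost the call in the fit that blocks on the number run. Of 50 measured marker genes in 7 lists limma called 0 in either, with 10 higher and 1 lower at an unadjusted p under 0.05 in KLF1-/- KLF2-/-, and 1 each way in KLF1-/-. Over all probe sets 1.48% were higher and 0.636% lower at that p in KLF1-/- KLF2-/-, and 1.18% and 0.738% in KLF1-/-. The KLF1-/- comparison was tested on simulated data with 22626 probe sets, where 96%, 84%, 70% and 98% of 50 changed by −2, −1, 1 and 2 were recovered, with 6 false calls. The simulated noise was independent between probe sets, whereas 1 principal component held 47.41% of the variance of the real arrays. These rates need not hold for the real arrays, and a probe set that did not pass is not shown to be unchanged. The alternatives were the number run as a block, 1 probe set a gene, a filter that removed 3666 dim probe sets, quantile normalization, trend and robust variance, array weights, covariates, the groups of 1 run only, and leaving out each array. Array weights with a strong prior were added after seeing the data. Array medians were 6.55 to 6.66 and interquartile ranges 2.31 to 3.12. The number of arrays limits the precision.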

Additional observations from a re-analysis of the deposited data

Results flagged for a closer look

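Within wild type, Btn1a1 1419175_a_at read 8.14 in replicate 9, far from the other arrays both among all 8 wild-type arrays and among replicates 9 to 12. Btn1a1 1425754_a_at read 4.95 in wild-type replicate 12, far from the other arrays of replicates 9 to 12. Chance gives such a gap in about 1 in 20 groups. Groups of 3, which include both mutant genotypes, were not examined for such gaps.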

How the results depend on the processing

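In KLF1-/- minus wild type the Btn1a1 1419175_a_at difference stayed above 0 in 24 of 24 alternatives (1.06 to 1.67), and so did Tcim (0.17 to 0.60). Over the 4 probe sets, 84 of 92 alternative values of that comparison kept direction and side of the threshold, 4 gained a call and 4 changed sign. In KLF1-/- KLF2-/- minus wild type 91 of 92 kept their sign, but limma's adjusted p was under 0.05 in 10 of 24 alternatives for Btn1a1 1419175_a_at and in 12 of 24 for Tcim, and in neither with the number run as a block, so no call is drawn there. In KLF1-/- KLF2-/- minus KLF1-/- 84 of 92 kept their sign. The cause was not tested. Probe set 1425754_a_at ran from −0.12 to 0.22 with 1 array left out, and from −0.030 to 0.31 against wild type 1 to 4. Between wild-type runs, 1451824_at ran from −0.10 to 0.0088. Tcim and the interquartile range had r = −0.34 after quantile normalization and −0.18 without the 2 farthest arrays. Btn1a1 and Gapdh had r = −0.021 after quantile normalization.

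KLF1-/- minus wild type, with 6 called, had 2 with the number run as a block, 10 with the first principal component, 1 with the groups of 1 run only, and 2 to 7 with 1 array left out (2 without KLF1-/- replicate 6 or 8). KLF1-/- KLF2-/- minus wild type, with 5, had 8 with 1 probe set a gene, 9 with the dim filter, 9 with quantile normalization, 10 with trend and robust variance, 10 with strong-prior weights, 25 with the first principal component, and 1 to 7 with 1 array left out (1 without KLF1-/- KLF2-/- replicate 13 or 14, 2 without KLF1-/- replicate 8 or wild-type replicate 10, 3 without wild-type replicate 1, 2, 3, 11 or 12). KLF1-/- KLF2-/- minus KLF1-/-, with 0, had 1 with 1 probe set a gene, 1 with quantile normalization, and 0 to 1 with 1 array left out. Array weights gave 1494, 4704 and 13656 calls in these comparisons, but their estimation stopped before converging and spread the weights from 0.167 to 92.97. No paired analysis was possible because no title number occurs in more than 1 group. Weak signal limits 1425754_a_at and 1451824_at.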
